A study of Mus musculus with 24 samples.

Results

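The regions described here are the 31642 autosomal regions of the table in which 5-hydroxymethylcytosine (5hmC) of StressHet mice was counted beside that of ControlWT mice. They were taken as all regions on chromosomes 1 to 19 of that table, which holds 31667 regions in all, the other 25 being on the X chromosome. The 5 tables of the study together hold 160195 regions. StressHet mice were heterozygous for Cntnap2, the gene of Caspr2, an adhesion protein of neurons, and were born to dams that went through 7 days of variable stress starting on embryonic day 12.5. ControlWT mice were wild type and came from mothers that were not stressed. The 2 groups thus differ in both factors at once, so that genotype and prenatal stress cannot be told apart in the difference between them. All of these mice were C57BL/6 females, were ear-tagged on postnatal day 12 and weaned on postnatal day 18, and gave a striatal micropunch of about 30 mg from which DNA and RNA were both taken. The labels do not give their age at dissection. Each group held 3 mice, and 5hmC-enriched DNA was sequenced for each of the 6.

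5hmC is the oxidised form of 5-methylcytosine that the TET dioxygenases make. It can be oxidised further and cut out by thymine DNA glycosylase, so it is a step of DNA demethylation, and it also persists as a mark of its own. Neurons hold more of it than most other cells of the body, largely within genes, and it builds up in the brain after birth. The striatum, a deep forebrain structure that selects movements and habits, consists mostly of inhibitory medium spiny neurons.

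The counts over the table were 2414935, 1269541 and 1606210 in StressHet mice, against 1765215, 3678525 and 2778507 in ControlWT mice. A typical region therefore held 57, 30 and 37 reads in StressHet libraries and 42, 90 and 65 reads in ControlWT libraries (medians). Every autosomal region had reads in all 6 libraries, and none was removed by a filter on low counts. The regions were 1001 to 8751 bp wide, with a median of 1143 bp. Replicate libraries of 1 group differed by more than counting noise, which alone gives a chi-square per region of about 1. The mean chi-square over all regions was 1.20 to 1.53 within StressHet mice and 1.26 to 1.84 within ControlWT mice. That mean includes the regions with the most reads, whose weight in it was not measured.

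Few striatal 5hmC regions passed the test between StressHet and ControlWT mice. Levels are given in CPM, the count of a region scaled to the reads of its library after TMM scaling, and a region was called where the edgeR quasi-likelihood test gave an adjusted p under 0.05 over the whole table. Of the 31642 autosomal regions, 1 was called higher and 1 lower in StressHet mice. With 1 region of the X chromosome that was also called higher, the share called over the table was 0.00632% higher and 0.00316% lower. At an unadjusted p under 0.05 stood 1211 autosomal regions that were higher and 1048 that were lower, against 3.84% and 3.31% of the table. The log2 fold change of StressHet over ControlWT mice ran from -1.15 to 1.03 over the regions, with a median of 0.00084. It was above 0 in 50.2% of them, and it lay between -0.34 and 0.34 in the central part from the 5th to the 95th percentile. TMM scaling places the bulk of regions near 0. A gain or loss of 5hmC shared by most regions could therefore not show in the median or the split. Only 304 regions differed by more than 1.5-fold in either direction as estimated, and 2 by more than 2-fold. The median standard error was 0.186 on the log2 scale, and the 95% interval of the difference stayed within 2-fold for 98.8% of regions and within 1.5-fold for 69.9%. Differences under 1.5-fold in single regions were thus often not told from 0 at this depth, and a call over the whole table needed more. Of the 304 regions past 1.5-fold as estimated, only the 1 higher and the 1 lower region called here passed the adjusted p.

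**Figure D1:**
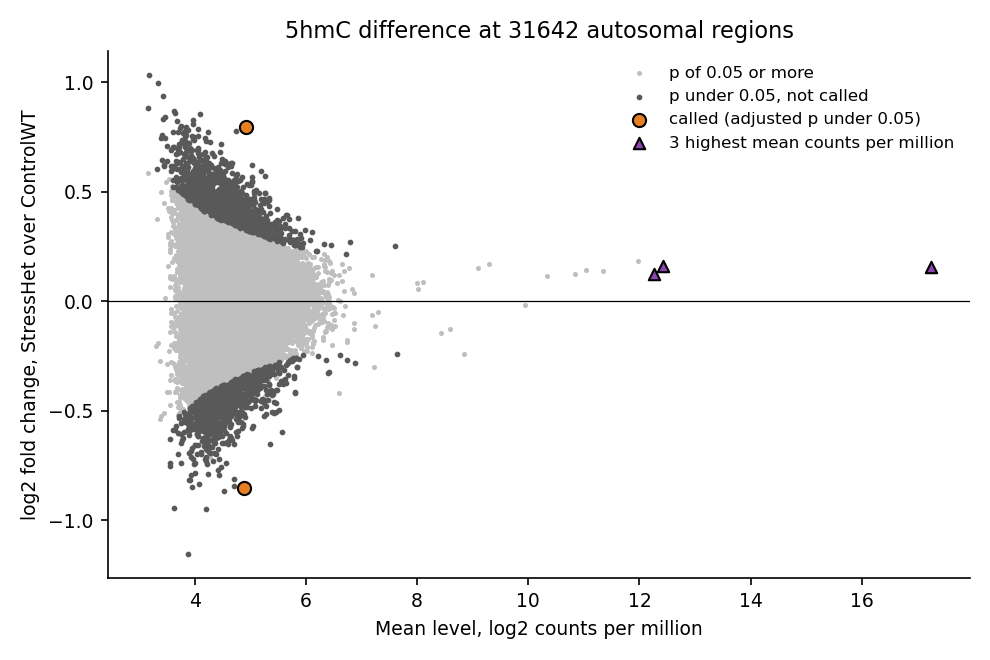
Each point is 1 of 31642 autosomal regions, with its mean 5hmC level (log2 CPM) on the x axis and the log2 fold change of StressHet over ControlWT mice on the y axis. The cloud is centred on 0, where TMM scaling places it, and narrows to the right. The 2 called regions lie at 0.79 and -0.85, and the 3 regions of highest CPM lie at 0.12 to 0.16.

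The region called higher was chr19:37396200-37397599 (mm9, 1400 bp). It had 111, 42 and 55 reads, or 45.7, 33.1 and 35.5 CPM, in StressHet mice, against 36, 100 and 54 reads, or 20.3, 26.5 and 19.4 CPM, in ControlWT mice. All 3 StressHet mice lay above all 3 ControlWT mice. The means were 38.1 ± 6.70 CPM in StressHet mice and 22.1 ± 3.85 CPM in ControlWT mice (SD, n = 3 each), a log2 fold change of 0.79 ± 0.17 (SE) with an edgeR adjusted p of 0.0412. The region called lower was chr6:34450938-34451949 (1012 bp). It had 41, 30 and 31 reads, or 16.9, 23.6 and 20.04 CPM, in StressHet mice, against 47, 144 and 107 reads, or 26.5, 38.1 and 38.4 CPM, in ControlWT mice. The groups did not overlap here either, although ControlWT mouse 1 and StressHet mouse 2 were close. The means were 20.2 ± 3.38 CPM in StressHet mice and 34.4 ± 6.78 CPM in ControlWT mice (SD, n = 3 each), a log2 fold change of -0.85 ± 0.18 (SE) with the same adjusted p of 0.0412. Groups did not overlap in 2123 autosomal regions that were higher and 1755 that were lower, and over the table in 6.71% and 5.54%. Among the other tables of the study, the chromosome 19 region met a region only in those that hold StressHet mice. The chromosome 6 region met one only in those that hold ControlWT mice. How regions were chosen for a table is undescribed. Entry through the group where a region is high is thus possible, and the separation of groups at single regions is no independent support.

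Both calls were close to the threshold. With the 25 X regions left out of the fit, neither was called (edgeR adjusted p = 0.0625 for both). DESeq2 called no region (adjusted p of 0.99998 for both). Leaving out single mice gave a log2 fold change of 0.60 to 0.99 for the chromosome 19 region, which stayed called without ControlWT replicate 1 or 2 and in none of the 4 fits without StressHet replicate 1, 2 or 3 or ControlWT replicate 3 (adjusted p = 0.0875 to 0.524). For the chromosome 6 region it gave -0.97 to -0.71, and that region stayed called only without ControlWT replicate 1 (adjusted p = 0.00196, against 0.0875 to 0.509 without any other mouse). That last fit called 4 regions higher and 13 lower on the autosomes, the most of any fit.

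The called region on chromosome 19 lay in a cluster. It had 8 neighbouring regions within 100 kb, all 8 of them higher in StressHet mice, and 6 of the 8 had an unadjusted p under 0.05. With the called region these 7 followed each other with no other region between and formed the longest run of neighbouring regions with an unadjusted p under 0.05 in 1 direction on any autosome, chr19:37357900-37402063, over 44.2 kb. Of all regions under that p, 1986 stood alone, 123 runs held 2 regions, 5 held 3, and only 1 other run was longer than that, with 5 regions. The summed level over the 7 regions was 252, 185 and 243 CPM in StressHet mice, against 152, 162 and 154 CPM in ControlWT mice. StressHet mice 1 and 3 stood well above the ControlWT mice, and StressHet mouse 2 lay closest to them. The means were 227 ± 36.5 CPM in StressHet mice and 156 ± 5.25 CPM in ControlWT mice (SD, n = 3 each), a ratio of 1.45. As the run was found by its p-values, its sum is a description and was not tested. No input DNA was analysed here, so a difference in 5hmC and one in DNA copy number cannot be told apart in these counts.

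**Figure D2:**
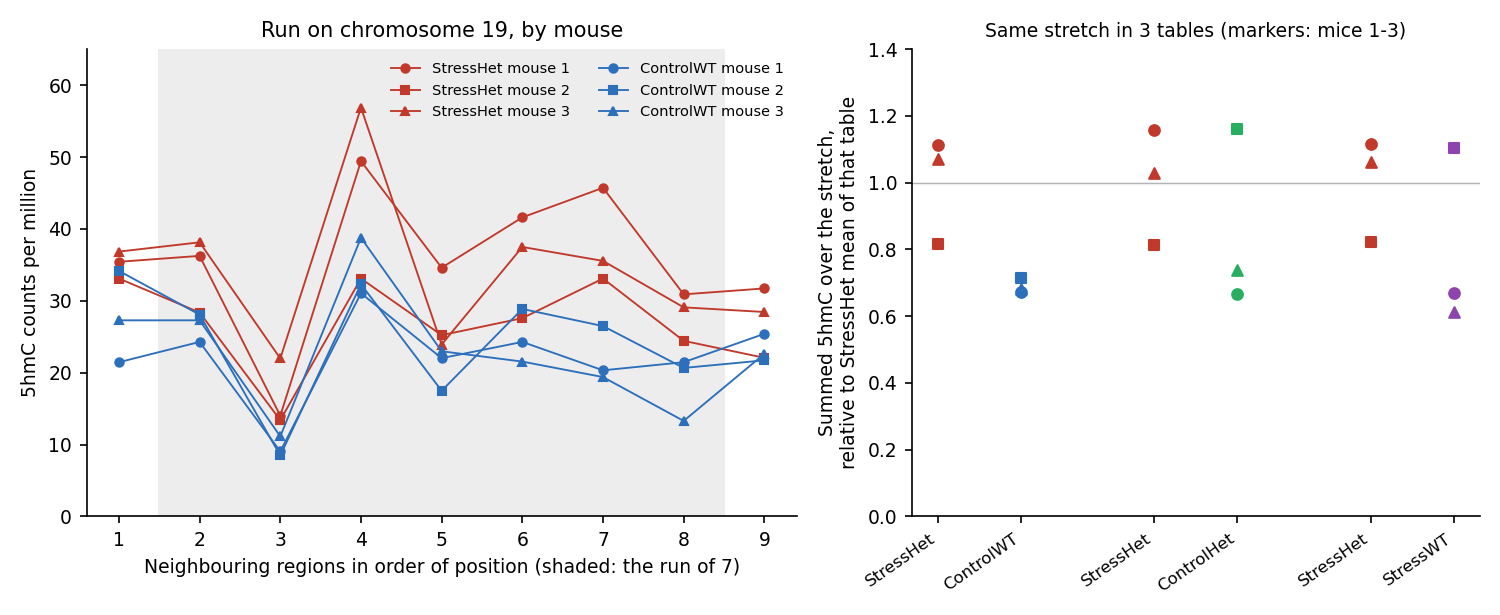
Left, 5hmC level (CPM) of each mouse at the 7 regions of the run on chromosome 19 (shaded) and the region on either side, in order of position. Right, the summed level over the same stretch in the 3 tables that hold StressHet mice, each divided by the StressHet mean of its table. StressHet mice 1 and 3 (252 and 243 CPM) stand apart from the ControlWT mice (152 to 162 CPM), and in the other tables a single mouse of ControlHet and of StressWT reaches the StressHet level.

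The same stretch could be read in the other groups of the study, each in its own table and on its own scale. Non-stressed het (ControlHet) mice were counted beside StressHet mice in 9 regions of the stretch. The sums were 326, 229 and 290 CPM in StressHet mice, against 188, 327 and 208 CPM in ControlHet mice. Stressed wild-type (StressWT) mice were counted beside StressHet mice in 7 regions, with sums of 307, 227 and 293 CPM in StressHet mice, against 184, 304 and 169 CPM in StressWT mice. In each table mouse 2 of the other group was among the highest StressHet mice, and its 2 fellows were below all StressHet mice. High levels over this stretch were thus found in single mice of groups with only one of the factors. At the called region itself the log2 fold change was 0.50 ± 0.17 for StressHet over ControlHet mice (edgeR adjusted p = 0.269) and 0.73 ± 0.18 for StressHet over StressWT mice (adjusted p = 0.248). The tables share the StressHet mice, so these values are not independent of each other.

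The second run, chr11:3041799-3060800, held 5 regions in 19.002 kb and was lower in StressHet mice. It summed to 484, 392.4 and 438 CPM in StressHet mice, against 452, 565 and 571 CPM in ControlWT mice. StressHet mouse 1 was above ControlWT mouse 1, so the groups overlapped, and the ratio of the means was 0.828.

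The called region on chromosome 6 had 2 neighbours within 100 kb, both lower in StressHet mice and neither with a p under 0.05. Chromosome 6 also carries Cntnap2, per the RefSeq table of GRCm38.p6, and the distance between the region and the gene was not measured here. In the table of ControlHet against ControlWT mice the same interval had 18.1, 14.96 and 11.6 CPM in ControlHet mice, against 23.4, 33.1 and 33.5 CPM in ControlWT mice. The groups did not overlap, and the log2 fold change was -1.07 ± 0.18 (edgeR adjusted p = 0.00271). In the table of StressWT against ControlWT mice it had 32.2, 32.9 and 34.6 CPM in StressWT mice, against 25.8, 37.1 and 37.3 CPM in ControlWT mice. There the groups overlapped, and the log2 fold change was -0.05 ± 0.15 (edgeR adjusted p = 0.955). Both groups of het mice thus had lower counts here than ControlWT mice, and the ControlWT libraries are the same 3 in all of these comparisons.

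Among the regions next in rank, 5 that were higher and 5 that were lower are named by their p-value, and none was called. Of those higher, chr19:37040452-37041899 had 33.8, 30.7 and 38.8 CPM in StressHet mice, against 22.0, 19.9 and 19.02 CPM in ControlWT mice (log2 fold change 0.78 ± 0.17, edgeR adjusted p = 0.0847). It lies 354.3 kb from the called region of that chromosome, and 11 of its 15 neighbours within 100 kb were also higher. A pair on chromosome 10, chr10:115495798-115496836 and chr10:115568200-115569799, lies 71.4 kb apart with no region between. The first of the pair had 23.5, 22.1 and 20.7 CPM in StressHet mice, against 13.5, 10.9 and 13.3 CPM in ControlWT mice (0.85 ± 0.21, adjusted p = 0.272). The second had 36.2, 44.9 and 40.7 CPM in StressHet mice, against 27.7, 25.4 and 25.1 CPM in ControlWT mice (0.62 ± 0.16, adjusted p = 0.324). Both were separated between the groups in every mouse. Regions of other tables that shared 987 and 941 bp with the first differed by 0.36 for ControlHet and 0.46 for StressWT over ControlWT mice. Those that shared 1014 and 1591 bp with the second differed by 0.0058 and 0.26 in the same order (log2 fold changes, none called). Their ends differ from those of the pair, so these values are not for the same intervals.

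The remaining higher regions were chr12:112414487-112415999, at 44.3 ± 7.66 CPM in StressHet mice and 29.7 ± 3.51 CPM in ControlWT mice, and chr14:104215000-104216599, at 46.4 ± 8.41 CPM in StressHet mice and 31.1 ± 0.744 CPM in ControlWT mice (SD, n = 3 each). Their log2 fold changes were 0.60 ± 0.15 and 0.57 ± 0.15. Of the chromosome 14 region, only 1100 bp were counted for ControlHet against ControlWT mice. The log2 fold change of that part was 0.70 ± 0.16 for ControlHet over ControlWT mice (edgeR adjusted p = 0.516). Over the full region it was 0.06 ± 0.14 for StressHet over ControlHet mice.

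Of the lower regions, chr5:97454500-97455500 had 16.9, 15.8 and 18.7 CPM in StressHet mice, against 25.97, 32.8 and 31.9 CPM in ControlWT mice. Every StressHet mouse was below every ControlWT mouse, and the log2 fold change was -0.84 ± 0.19 (edgeR adjusted p = 0.0847). The region chr12:76594599-76597399, the widest of the named lower ones at 2801 bp, had 35.8, 40.2 and 33.0 CPM in StressHet mice, against 53.1, 57.2 and 52.8 CPM in ControlWT mice (-0.60 ± 0.14, adjusted p = 0.125). Every ControlWT mouse was well above every StressHet mouse.

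The region chr8:26928410-26929486 had 13.2, 11.03 and 8.402 CPM in StressHet mice, against 19.8, 23.8 and 20.5 CPM in ControlWT mice (-0.95 ± 0.22, edgeR adjusted p = 0.125). Its groups did not overlap, but it held as few as 13 and 14 reads in StressHet mice 3 and 2. The region chr14:121974700-121975700 had 18.1, 12.6 and 12.3 CPM in StressHet mice, against 19.2, 34.7 and 24.0 CPM in ControlWT mice (-0.87 ± 0.20). The groups were apart there, StressHet mouse 1 and ControlWT mouse 1 by little. At chr19:5860640-5862192 the groups overlapped, with 17.3, 12.6 and 22.0 CPM in StressHet mice, against 20.9, 34.4 and 33.4 CPM in ControlWT mice (-0.81 ± 0.19). At that region StressWT mice were also below ControlWT mice, by -0.82 ± 0.19 on the log2 scale (edgeR adjusted p = 0.153), and ControlHet mice differed by -0.05 ± 0.18.

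**Figure D3:**
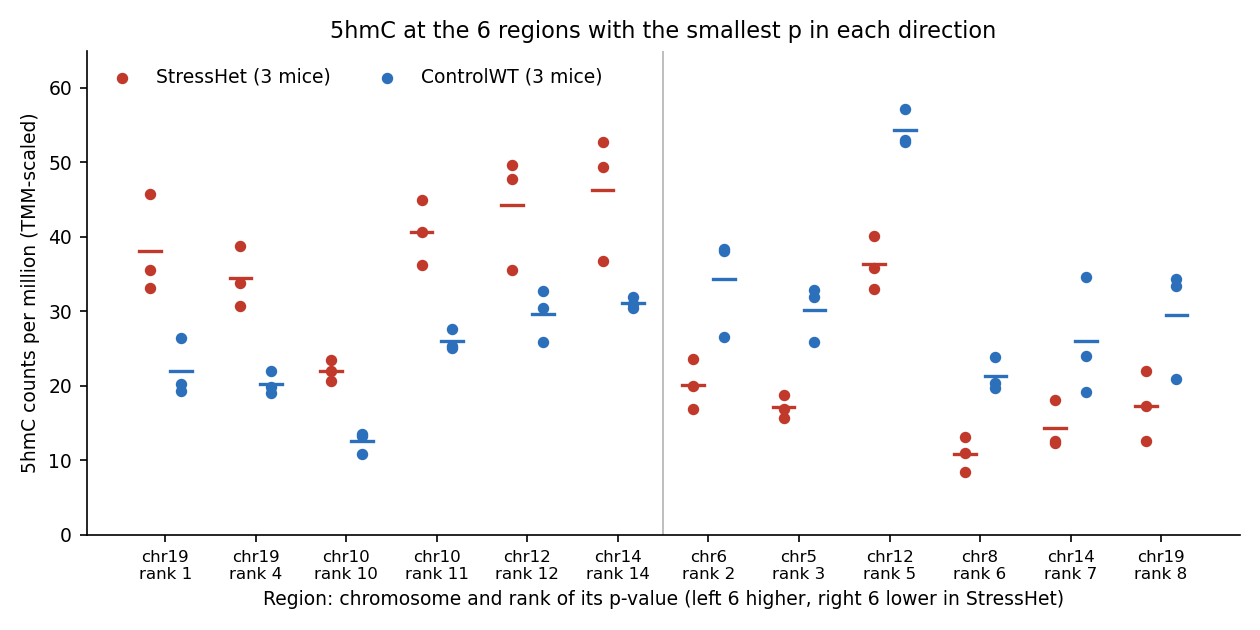
5hmC level (CPM) at the 6 regions of smallest p in either direction, with 1 point per mouse, StressHet mice left of ControlWT mice, and a bar at each mean. The groups are apart in all regions except the last on the right, and only the regions of rank 1 (38.1 against 22.1) and rank 2 (20.2 against 34.4) were called.

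The most abundant regions were not called. A single region, chr2:98502000-98507831, took 14.8, 15.5 and 17.97% of the counts of the table in StressHet mice, against 15.4, 13.7 and 15.2% in ControlWT mice. The Wilson 95% interval of each share is within 0.1 percentage points of it and covers counting error only. StressHet mouse 3 was highest and ControlWT mouse 2 lowest, the groups overlapped, and the log2 fold change was 0.16 ± 0.22 (edgeR adjusted p = 0.922). The next in level, chr9:35112300-35113499 and chr9:2999669-3003299, averaged 5791 ± 857 and 5128 ± 784 CPM in StressHet mice and 5182 ± 525 and 4703 ± 454 CPM in ControlWT mice (SD, n = 3 each). At both, StressHet mouse 3 was again highest and ControlWT mouse 2 lowest. Whether the reads of these 3 regions come from near-identical copies elsewhere in the genome was not tested, as no mm9 sequence was used here.

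The widest regions were not called either. The widest of all, chr2:6278949-6287699 with 8751 bp, had 289, 256 and 240 CPM in StressHet mice, against 242, 255 and 261 CPM in ControlWT mice (log2 fold change 0.06 ± 0.12, edgeR adjusted p = 0.954). The region chr15:51663699-51670829 averaged 154 ± 14.5 CPM in StressHet mice and 140 ± 7.40 CPM in ControlWT mice (SD, n = 3 each). The third, chr9:3015000-3020999, averaged 2223 ± 296 CPM in StressHet mice and 2012 ± 283 CPM in ControlWT mice. For both, the groups overlapped.

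Across the regions, the difference went slightly with their width. The regions were split into 5 classes of equal size by width, by mean level and by reads per length. In the narrowest class, from 1001 to 1036 bp, the median log2 fold change was -0.025 and 45.2% of regions were higher in StressHet mice. In the widest class, from 1578 to 8751 bp, it was 0.017, and 54.2% were higher. Relative to the mean of all mice, the median log2 level of the narrowest class was 0.026, -0.010 and -0.013 in StressHet mice, against -0.020, 0.054 and 0.029 in ControlWT mice, so the groups overlapped. That of the widest class was 0.011, 0.012 and 0.013 in StressHet mice, against 0.0053, -0.021 and 0.0048 in ControlWT mice. The groups were apart in the widest class, by little, and neither class was tested. By level, the class with the fewest reads, from 8.58 to 18.3 CPM, had 5.80% of its regions at a p under 0.05 on the higher side and 4.39% on the lower side, more than the other classes. The regions least dense in reads, up to 15.9 CPM per kb, had the highest share on the higher side, at 6.16%. Relative to the mean of all mice, the median log2 level of these regions was -0.018, -0.018 and 0.082 in StressHet mice, against 0.067, -0.054 and 0.0089 in ControlWT mice. StressHet mouse 3 and ControlWT mouse 1 were thus high there together, and the groups overlapped.

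The estimated differences of neighbouring regions correlated little. Regions were typically 14881 bp apart (median gap). For the 2522 pairs of neighbours less than 1 kb apart, the log2 fold changes correlated with a Pearson r of 0.068 and had the same sign in 52.1%. For the 5205 pairs more than 100 kb apart, r was 0.039 and 51.3% had the same sign. These pairs share their libraries and scaling, so the values are a description. In the class of highest level the estimates spread about as widely as their standard errors, with an SD of 0.154 and a median SE of 0.150. In the class of lowest level the SD of 0.277 was above the median SE of 0.220. Standard errors of such size lower r between estimates, so a low r cannot show how much of the difference neighbours share. Over windows of 5 Mb with at least 20 regions, 425 in all, the median log2 fold change ran from -0.14 to 0.17. The window with the most regions at a p under 0.05 was that from 70 to 75 Mb of chromosome 16, where 96 of 127 regions were higher in StressHet mice, 19 of them with a p under 0.05 and 1 lower region with such a p. Relative to the mean of all mice, the median region of that window lay at 0.019, 0.087 and 0.104 in StressHet mice, against 0.059, -0.149 and -0.0997 in ControlWT mice (log2 scale). ControlWT mouse 1 lay among the StressHet mice there.

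No chromosome was called as a whole. The regions were spread over the autosomes from 981 on chromosome 7 to 2526 on chromosome 2. Per Mb up to the last region of any table, chromosome 7 was sparsest with 6.47 regions, and chromosomes 18 and 19 were densest with 16.96 and 16.5. When counts were summed per chromosome, none of the 19 was called by edgeR (0% called). Only chromosome 3 had an unadjusted p under 0.05, with a log2 fold change of 0.017 ± 0.0048 (SE, edgeR adjusted p = 0.199). With limma on the same sums none was called either, and the adjusted p of chromosome 3 was 0.247. The largest estimate was 0.11 ± 0.088 for chromosome 2, and it came to 0.00037 when the most abundant region was left out. Without that region edgeR again called none, chromosomes 4 and 7, both lower in StressHet mice, had an unadjusted p under 0.05, and chromosome 3 no longer did (0.011 ± 0.0051, edgeR adjusted p = 0.373). In that fit edgeR gave no usable statistic for chromosomes 8, 14, 15 and 19. With limma on the sums without that region none was called, and chromosomes 4 and 7 were not under 0.05 (limma unadjusted p = 0.159 and 0.068). Chromosome 9, which holds several of the other very abundant regions, was at 0.053 ± 0.038.

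Counted by region, 108 regions of chromosome 3 had a p under 0.05 on the higher side and 59 on the lower side, and on chromosome 8 the counts were 88 and 44. Chromosomes 6, 7, 11, 15 and 17 had more on the lower than on the higher side, with 82 lower and 58 higher on chromosome 6 and 48 lower and 25 higher on chromosome 17. The median log2 fold change of the regions of a chromosome ran from -0.028 on chromosome 7, where 44.8% of regions were higher in StressHet mice, to 0.028 on chromosome 16, where 55.0% were. The signs of the sums of chromosomes 3 and 16 turned (-0.014 and -0.010) when libraries were scaled by their totals only.

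**Figure D4:**
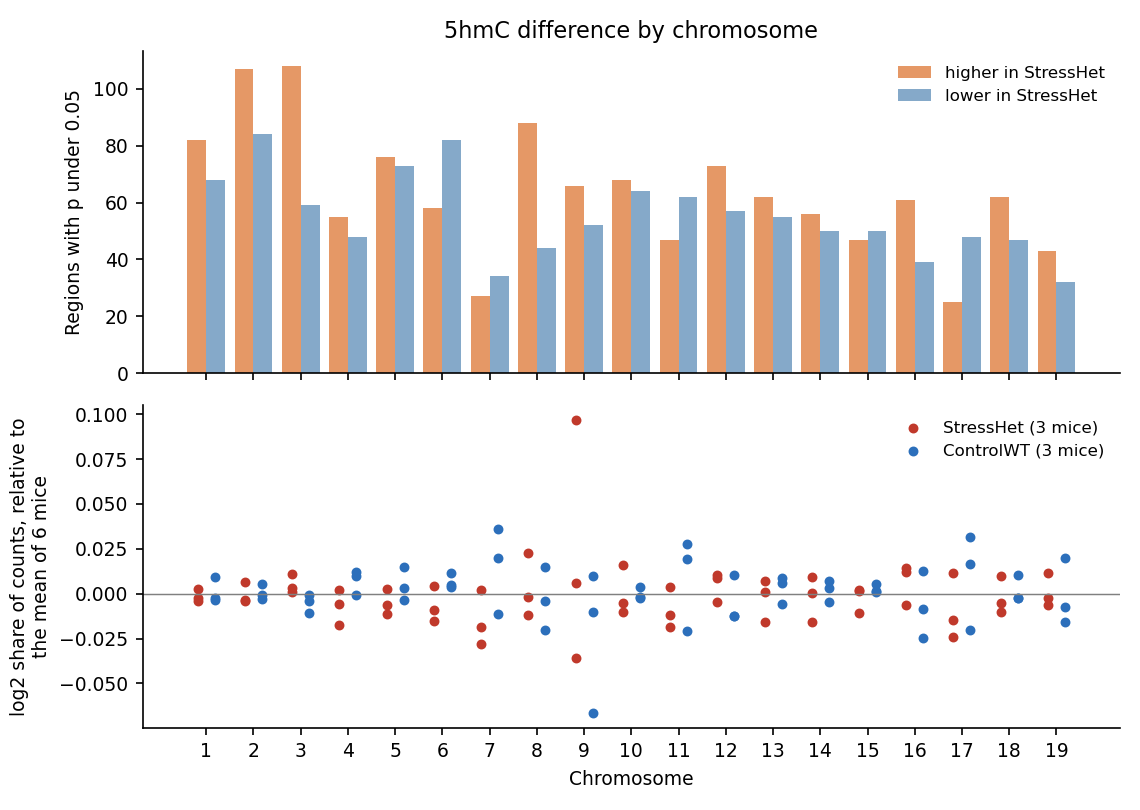
Top, the number of regions with an unadjusted p under 0.05 per chromosome, higher or lower in StressHet mice. Bottom, each mouse's share of counts per chromosome without the most abundant region, as log2 relative to the mean of the 6 mice, with StressHet mice left of ControlWT mice. The groups overlap on most chromosomes, and chromosome 9 varies most between mice.

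The tables of the other comparisons were built on region sets of their own. Of the autosomal regions described here, 87.5% overlapped a region of the table of ControlHet against ControlWT mice by at least 1 bp, which is 72.5% of the regions of that table. The shares were 86.4% and 82.3% for StressWT against ControlWT mice, 68.6% and 67.5% for StressHet against ControlHet mice, and 60.3% and 76.4% for StressHet against StressWT mice. Where interval ends were identical, shared libraries had identical counts in all values compared, 40815 of 40815 with ControlHet against ControlWT mice. With X regions included, the tables had 0 to 3 called regions each, with StressHet against ControlWT mice at 3 (0.00947%), StressHet against ControlHet mice at 2 (0.00621%), ControlHet against ControlWT mice at 1 (0.00262%), and StressHet against StressWT mice and StressWT against ControlWT mice at 0 (0%). At an unadjusted p under 0.05 these stood at 7.15%, 9.95%, 7.51%, 7.41% and 8.85% of their regions in the same order. The comparison that joins both factors thus had the smallest share at that p, a difference between tables that was not tested.

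RNA of the same 6 mice was read next to 5hmC, first for the genes that make, bind and remove the mark. RNA levels are given as TPM from the deposited files and differences as edgeR log2 fold changes of counts, which are scaled by TMM and can differ from TPM in size and sign. Of 27 genes of this kind, 26 had enough reads to be tested, 14 were higher and 12 lower in StressHet mice, and none was called in either direction. None had an unadjusted p under 0.05. The median log2 fold change of the list was 0.0084, against -0.0030 over all 15955 genes tested. Over all genes, edgeR called 1 higher (0.00627%) and none lower (0%), and 204 genes had an unadjusted p under 0.05 (1.28%), 134 of them lower. DESeq2 called 2 genes and limma-voom 50, in either direction.

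Of the writers, Tet1 was at 0.53, 0.50 and 0.56 TPM in StressHet mice, against 0.17, 0.37 and 1.70 TPM in ControlWT mice. Tet2 was at 2.34, 2.78 and 3.13 TPM in StressHet mice, against 1.13, 1.84 and 4.15 TPM in ControlWT mice. Tet3 was at 3.10, 3.28 and 3.11 TPM in StressHet mice, against 0.88, 2.15 and 5.68 TPM in ControlWT mice. For all 3 the StressHet mice lay inside the range of the ControlWT mice, with ControlWT mouse 1 lowest and ControlWT mouse 3 highest. This was not particular to them. Among marker genes of other kinds, ControlWT mice had 9.05, 22.5 and 52.65 TPM of Bcl11b and 58.6, 122.8 and 246.4 TPM of Slc1a2, with the StressHet mice inside. Others, such as Penk (2268, 2186 and 2316 TPM) and Aldoc (1189, 1082 and 1000 TPM), did not have that order in ControlWT mice. The log2 fold changes were -0.14 ± 0.51, 0.19 ± 0.35 and 0.11 ± 0.57 (SE, edgeR adjusted p of 1 for each). The sign of Tet1 turned without ControlWT replicate 3, and the signs of Tet2 and Tet3 turned without ControlWT replicate 1.

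Tdg, the glycosylase that removes the further oxidised forms, was at 20.01, 19.04 and 19.5 TPM in StressHet mice, against 9.96, 13.2 and 20.2 TPM in ControlWT mice (log2 fold change 0.25 ± 0.15, edgeR adjusted p of 1). The StressHet mice were again close together and below ControlWT mouse 3. The methyltransferases Dnmt1, which copies methylation after replication, and Dnmt3a, which sets it anew in neurons, were at 9.35 ± 0.592 and 7.37 ± 0.696 TPM in StressHet mice and 8.27 ± 3.43 and 7.59 ± 4.73 TPM in ControlWT mice. Their log2 fold changes were 0.07 ± 0.24 and -0.06 ± 0.42. Mbd4, a glycosylase that acts on mismatches at methylated sites, was at 3.15 ± 0.175 TPM in StressHet mice and 2.62 ± 0.566 TPM in ControlWT mice. Cntnap2 itself was at 45.5, 49.2 and 59.45 TPM in StressHet mice, against 43.55, 40.3 and 55.1 TPM in ControlWT mice, and its log2 fold change in counts was -0.24 ± 0.22 (adjusted p of 1), so the 2 scales differ in sign.

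**Figure D5:**
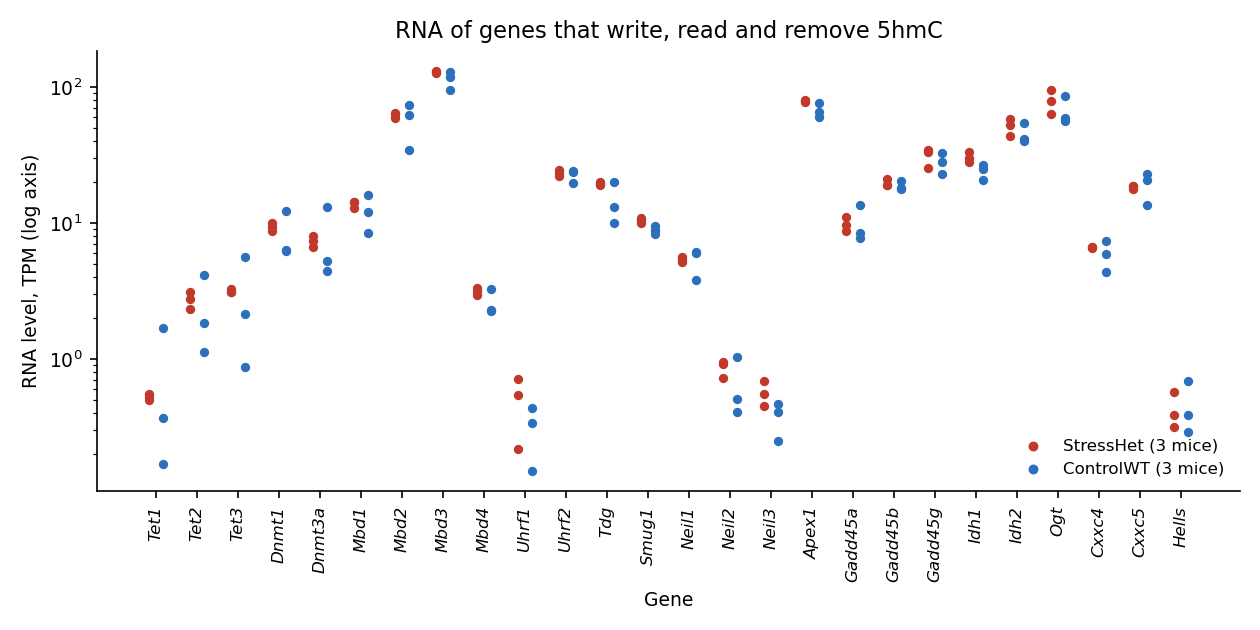
RNA level in TPM, on a log axis, of the 26 tested genes that write, read and remove 5hmC or methylation, with 1 point per mouse and StressHet mice left of ControlWT mice. For Tet1, Tet2, Tet3 and Dnmt3a the 3 StressHet mice lie inside a wide spread of ControlWT mice, as with Tet3 at 3.10 to 3.28 TPM against 0.88 to 5.68 TPM. Some genes outside this list, such as Bcl11b, had a like spread.

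The gene called was Gm6736, annotated as a pseudogene, with 295, 334 and 238 reads in StressHet mice, against 0, 4 and 0 reads in ControlWT mice. Its fitted log2 fold change of 7.28 ± 0.60 (edgeR adjusted p = 0.0133) depends on a prior count, and its reads may be shared with near-identical copies. Links between single 5hmC regions and single genes need gene positions in mm9 and were not analysed here. By chromosome, the median RNA log2 fold change ran from -0.029 on chromosome 17 to 0.030 on chromosome 18, as narrow a range as that of 5hmC. Chromosome 17 was low in both, with a 5hmC median of -0.017, while chromosome 16, highest in 5hmC at 0.028, had an RNA median of 0.0060. Over the 19 chromosomes the medians had a Pearson r of 0.38 and the same sign on 11 of 19. Those points share their mice, and chromosomes differ in gene density and base composition, so the value is a description.

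The RNA of cell-type markers, the only view of the cell makeup of the punches here, varied between mice of 1 group. Markers of medium spiny neurons, which define the labelled tissue, summed to 9754, 8857 and 9678 TPM in StressHet mice, against 7123, 7484 and 9037 TPM in ControlWT mice; 16 of 17 were higher in StressHet mice and none was called. All 12 oligodendrocyte markers were lower in StressHet mice as edgeR log2 fold changes (median -0.32, 4 with an unadjusted p under 0.05, none called), and their sums of 10311, 11668 and 9946 TPM in StressHet mice overlapped the 9275, 12528 and 14185 TPM of ControlWT mice. The 10 choroid plexus markers, genes of the tissue that makes cerebrospinal fluid, summed to 13.3, 16.7 and 578 TPM in StressHet mice, against 583, 303 and 338 TPM in ControlWT mice. StressHet mice 1 and 2 were thus low in choroid plexus RNA and StressHet mouse 3 was not. All 10 were lower in StressHet mice as edgeR log2 fold changes (median -1.10, none with an unadjusted p under 0.05, none called). The 10 thalamus markers, all lower in StressHet mice, summed to 48.4, 67.0 and 63.2 TPM in StressHet mice, against 81.3, 64.0 and 164 TPM in ControlWT mice, with ControlWT mouse 3 highest. Their median log2 fold change was -0.76, and 3 of the 10 had an unadjusted p under 0.05, where 1.28% of all genes did. The 10 markers of cortical excitatory neurons summed to 148, 191 and 141 TPM in StressHet mice, against 57.9, 180.5 and 48.4 TPM in ControlWT mice. Astrocyte markers (6 of 10 higher), microglial markers (3 of 10) and endothelial and mural markers (3 of 10) had no call either. Of 10 ependymal markers 9 were lower in StressHet mice (median log2 fold change -1.04, 1 with an unadjusted edgeR p under 0.05, none called). Their sums were 9.30, 9.77 and 30.1 TPM in StressHet mice, against 52.9, 16.95 and 18.6 TPM in ControlWT mice, so the groups overlapped. In ControlWT mice the sums of medium spiny neuron, oligodendrocyte and astrocyte markers (1810, 1905 and 2060 TPM for the last) all rose from mouse 1 to mouse 3. Those of microglial and of endothelial and mural markers did not. A shift of whole libraries and one in cell makeup cannot be told apart here. In such bulk tissue, fewer cells of a type and less RNA or 5hmC per cell cannot be told apart either. The part of these differences in the 5hmC values was not tested.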

How the data were processed

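Striatal DNA enriched for 5hmC and RNA of the same mice were sequenced. Per the submitters' processing notes, Bowtie 0.12.7 aligned the 5hmC reads (mm9), and RSEM with Bowtie assigned the RNA reads. Each deposited 5hmC table gives raw counts of reads for every region and mouse, per the file headers. The choice of regions is undescribed (not given in the sources used here). Rows within a chromosome follow the order of their p-values closely (Spearman rho 0.970 to 0.978 in this table), and region positions are as in the files. The authors' RNA files give expected counts and TPM per gene from RSEM, per the file headers.

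The 6 count columns were fitted in R 4.3.3 with edgeR 4.0.16 (TMM, robust glmQLFit, glmQLFTest, no filter), adjusted by Benjamini-Hochberg over 31667 regions and called at 0.05, two-sided. Counts were also summed per chromosome and fitted the same way. Without the most abundant region edgeR returned a test statistic of 0 for some chromosome sums, so limma 3.58.1 on log2 sums was added after seeing the data. Expected counts were rounded, filtered with filterByExpr and fitted over 12 libraries with 4 group means, and 15955 of 37289 genes were tested. Chromosomes of genes came by symbol from a RefSeq table of GRCm38.p6 for 94.1% of them. Alternatives were library totals, DESeq2 1.42.0 size factors and test, limma-voom with sample weights, a replicate block, leaving out single mice and, added after seeing the data, autosomes only. The scripts were tested on simulated data.

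Named regions are those called, filled to the 6 of smallest p in either direction, the 3 with the highest mean level and the 3 widest. Named genes are Cntnap2, called genes, filled to the 3 of smallest p in either direction, chosen pathway genes and the 2 list members with the smallest p. Gene lists, regions and tests were chosen with earlier results of these data known. Replicate numbers name mice and are not stated to pair them. Mice of 1 group may share a litter, and p-values then measure only the spread among the mice sampled. Residuals of same-numbered libraries correlated at -0.172, -0.0876 and -0.0365, so the numbers were not taken as pairs. Reads of antisense or overlapping partners may be mixed, strand use being unstated. A gene of the planned pathway list is not reported here.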

Additional observations from a re-analysis of the deposited data

Results flagged for a closer look

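A signal outside the autosomal regions stood above the control level. The X region chrX:166408174-166409999 (mm9, 1826 bp) was higher in StressHet mice, with 63.4, 64.6 and 47.2 CPM in StressHet mice, against 15.2, 24.6 and 39.5 CPM in ControlWT mice. The groups did not overlap, and the log2 fold change was 1.10 ± 0.19 (value 1.095, edgeR adjusted p = 0.0412). ControlHet mice, in their own table against ControlWT mice, had 19.5, 34.9 and 53.7 CPM, against 13.4, 21.4 and 34.5 CPM in ControlWT mice, and there the groups overlapped (0.63 ± 0.50, adjusted p = 0.810). The adjoining region chrX:166410600-166427099, at 16500 bp wider than any autosomal one, had 1922, 1437 and 1195 CPM in StressHet mice, against 457, 875 and 1230 CPM in ControlWT mice, with StressHet mouse 3 below ControlWT mouse 3 (0.83 ± 0.30, adjusted p = 0.624). All mice are labelled female. ControlWT mice spread widely at the first region, from 15.2 to 39.5 CPM. With the same ControlWT libraries its SE was 0.50 in the fit with ControlHet mice, against 0.19 here. As no input DNA was analysed, a difference in 5hmC and one in DNA copy number cannot be told apart at either X region.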

How the results depend on the processing

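With 3 mice a group and a median standard error of 0.186, depth and mouse number limit what single regions show. No autosomal region was called higher or lower (0 and 0) with library totals only, with DESeq2, with the replicate block or with autosomes only. Limma-voom called 3 higher, and an adjusted p of 0.10 gave 2 higher and 2 lower. Leaving out 1 mouse gave 0 to 4 called higher and 0 to 13 called lower, with 4 and 13 without ControlWT replicate 1. The block on the replicate number thus took the 2 autosomal calls to 0 (edgeR adjusted p 0.252 on chromosome 19 and 0.518 on chromosome 6). The numbers are not stated to pair the mice. Chromosomes called stayed at 0 in all fits. A reciprocal overlap of 50% gave shares of 85.5% and 71.1% with ControlHet against ControlWT, 65.9% and 64.8% with StressHet against ControlHet, 58.3% and 73.8% with StressHet against StressWT, and 85.004% and 81.0% with StressWT against ControlWT. RNA calls were 0 with the libraries of both groups only, 2 with DESeq2 and 50 with limma-voom, and 0 to 1 with 1 mouse left out. Among uncalled log2 fold changes, signs turned for chromosomes 3 (-0.014) and 16 (-0.010) with library totals only. The block gave Tet1 0.089 and Dnmt3a 0.098, and limma-voom gave Tet1 0.20, Dnmt3a 0.24, Esam 0.020, Cldn5 0.036, Slc17a7 -0.090 and Neurod2 -0.25. Leaving out 1 mouse turned further signs. The ranges were -0.0067 (without StressHet replicate 3) to 0.21 for chr9:2999669-3003299 and -0.028 (without StressHet replicate 1) to 0.11 for chr2:6278949-6287699. Tet1 ran from -0.49 to 0.52, Tet2 from -0.052 to 0.59, Tet3 from -0.27 to 0.79, Dnmt1 from -0.057 to 0.25 and Dnmt3a from -0.32 to 0.44. C1qa ran from -0.57 to 0.027, Esam from -0.26 to 0.065 and Cldn5 from -0.35 to 0.15. Most of these ends came without ControlWT replicate 1 or 3. Among named regions, genes and chromosomes, 22 values under an alternative lost a call, 12 gained one and 640 kept both direction and side. The cause of these changes was not tested.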

Other observations

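Other RNA differences with small p between StressHet and ControlWT mice did not pass the edgeR adjustment (adjusted p of 1 for each). Slc16a8, a lactate transporter known from the choroid plexus and retinal pigment epithelium, was at 0.18, 0.29 and 0.30 TPM in StressHet mice, against 0.86, 0.56 and 0.82 TPM in ControlWT mice (log2 fold change -1.71 ± 0.35). Tmem35b was at 1.35, 1.03 and 1.32 TPM in StressHet mice, against 2.69, 2.78 and 2.63 TPM in ControlWT mice (-1.45 ± 0.34), and the groups were far apart. Kcns3, a modifier subunit of potassium channels, was at 1.603 ± 0.352 TPM in StressHet mice and 2.603 ± 0.890 TPM in ControlWT mice (SD, n = 3 each). Gm10800, whose reads may come from near-identical copies, had 26, 34 and 23 reads in StressHet mice, against 3, 0 and 0 reads in ControlWT mice, and 4931422A03Rik had 15, 20 and 18 reads in StressHet mice, against 3, 4 and 3 reads in ControlWT mice. Shox2, a transcription factor of the thalamus, was at 0.21, 0.61 and 0.17 TPM in StressHet mice, against 0.71, 0.72 and 4.65 TPM in ControlWT mice. ControlWT mouse 3 was thus far above the others. The log2 fold change of Shox2 was -2.97 ± 0.80, and it ran from -3.60 to -1.80 over the alternative fits, which include leaving out single mice. Other tools called some of these genes in the same direction. DESeq2 called Gm10800 (adjusted p = 0.0112), and limma-voom called Gm10800 (adjusted p = 0.00061), Tmem35b (0.0043), Slc16a8 and Kcns3 (0.0451 for both).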
